A study of Homo sapiens with 8 samples.

Results

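Microtubules are the hollow tubulin polymers that give an axon its shape and carry its transport, and a set of 10 genes for proteins that build, bind or regulate them in neurons was described across the arrays. The genes were MAPT (tau), MAP2, MAP1A, MAP1B, DCX, DCLK1, STMN2, STMN4, TUBB3 and NAV2. Each was represented by the array row annotated to its symbol alone. A row of its own was found for 9 of the 10 members, 1 row each, among 18377 genes with such a row. The only row for TUBB3, the neuronal beta-tubulin, also lists a second gene, so TUBB3 was not analysed here.

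Structural microtubule-associated proteins such as tau, MAP2 and the MAP1 proteins lie along the polymer and stabilise it, with tau best known from axons and MAP2 from dendrites. Doublecortin and its relatives bind microtubules in migrating and newly born neurons, stathmins bind free tubulin dimers and favour disassembly, and navigators act at growing ends in extending neurites. In neuroblastoma cells several of these genes are used as signs of neuronal differentiation.

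SHSY5Y cells are an established human line, grown from a neuroblastoma, a tumour of the sympathetic lineage. Stable lines carrying the codes V71 and PLKO were compared, 1 line each, both selected with puromycin and both grown on laminin. In the differentiation condition (DF) cells were given 10 µM retinoic acid in medium that still held serum for 5 days, and then 2 nM BDNF, a neurotrophin, without serum for 3 days; in the non-differentiation condition (NDF) they stayed in growth medium with serum. There were 2 arrays for each of the 4 groups, V71 DF, V71 NDF, PLKO DF and PLKO NDF. The treatment label in the repository gives shRNA for PLKO and control for V71. In the methods, however, the empty vector is a pLKO plasmid, and the number of the shRNA clone ends in the digits of the code V71. A supplementary gene table of the study also runs against the treatment label. By the names in the methods V71 would be the shRNA line, and the treatment label says otherwise. The lines are called by their codes, and differences between them are V71 minus PLKO. Which line carries the shRNA was not settled here. The target of the shRNA was not analysed here, so it was not used to check the labels. Because each code is 1 stable line, the shRNA and the history of the line cannot be told apart, and in DF the effects of retinoic acid, serum withdrawal and BDNF cannot be told apart.

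Values are log2 RMA values, normalised probe intensities on which a difference of 1 is a doubling. A row sums up probes along the whole gene, so splice forms of tau, MAP2 or DCLK1 were not told apart, and levels of different genes are not set against each other. Arrays of 1 group had Spearman correlations of at least 0.9947 over all rows and the median residual SD was 0.0996. The lowest group mean of any member was 5.35, and the highest lower quartile of any array was 3.06. The 8 analysed markers of sympathetic neuroblasts had mean levels of 7.81 to 7.84 in V71 DF, 8.13 to 8.24 in V71 NDF, 7.80 to 7.83 in PLKO DF and 7.88 to 7.96 in PLKO NDF, and none was below the lower quartile in any group.

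**Figure D1:**
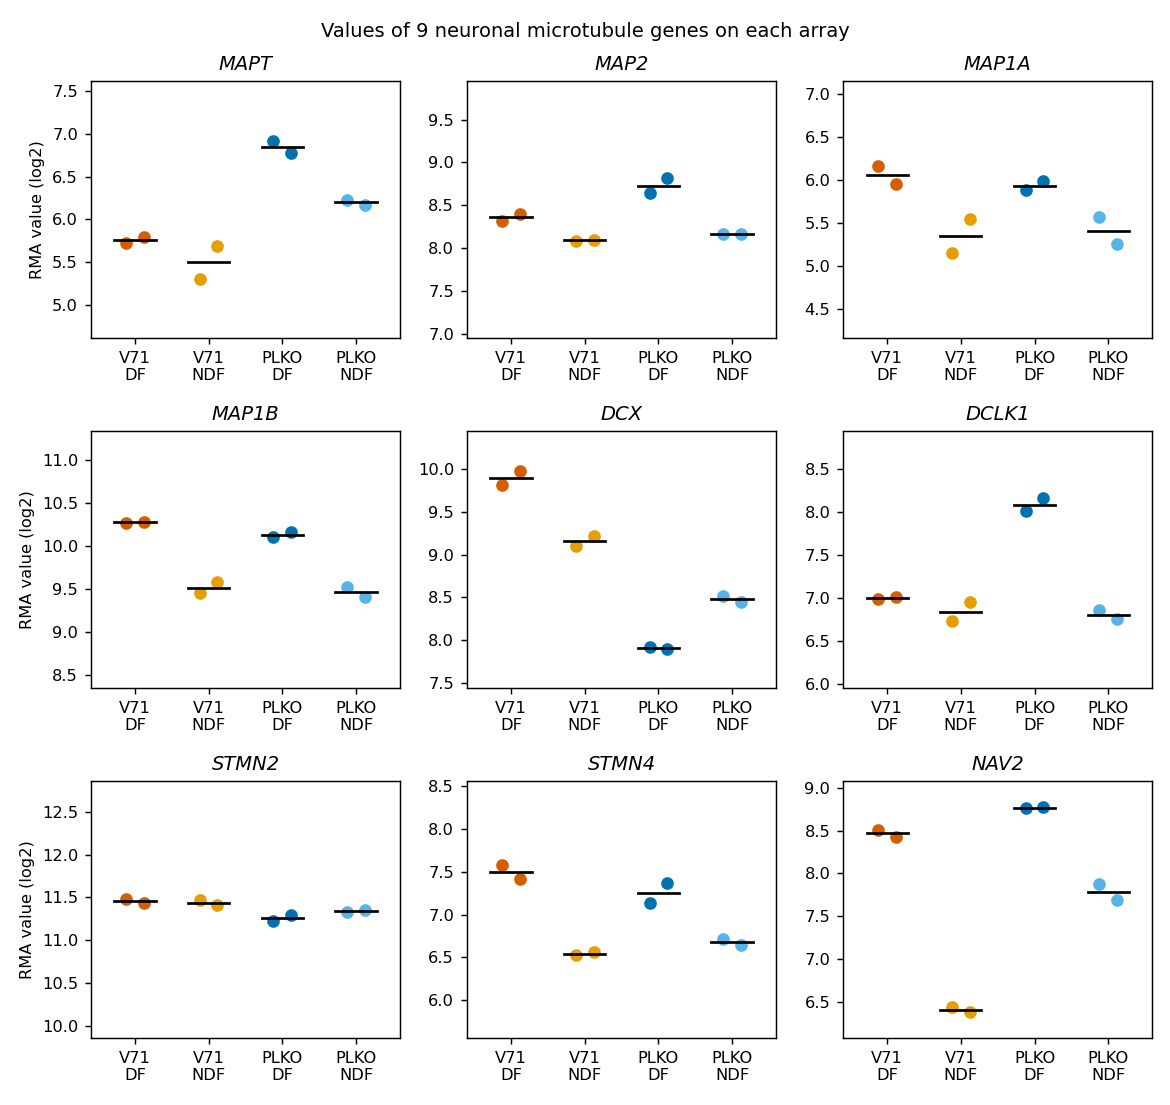
RMA value (log2) of each of the 9 members on each of the 8 arrays, in 1 panel per gene; points are arrays, bars are group means, and the groups are V71 DF, V71 NDF, PLKO DF and PLKO NDF. DCX is highest in V71 DF with a mean of 9.90, DCLK1 stands apart in PLKO DF with a mean of 8.08, NAV2 is lowest in V71 NDF with a mean of 6.41, and the STMN2 group means lie between 11.26 and 11.46.

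All members called upon differentiation were called as higher, in both lines. A gene was called when the limma adjusted p was under 0.05 over all rows and the fold was at least 1.5. In V71, 5 of 9 members rose upon differentiation, NAV2, STMN4, MAP1B, DCX and MAP1A, and none fell; over all genes 7.53% were called, 3.98% as higher and 3.55% as lower. In PLKO, 4 of 9 members rose, DCLK1, NAV2, MAP1B and MAPT, and none fell, DCX missing the call as lower by its fold; over all genes 7.04% were called, 2.88% as higher and 4.16% as lower. The median difference of the members was 0.70 in V71 and 0.58 in PLKO, beside medians over all genes of -0.0036 in V71 and 0.0129 in PLKO.

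Between the lines, 3 of 9 members differed in each condition. In DF, DCX was higher in V71 and MAPT and DCLK1 were lower; over all genes 3.06% were called, 1.81% as higher and 1.26% as lower. In NDF, DCX was higher in V71 and NAV2 and MAPT were lower; over all genes 2.15% were called, 0.615% as higher and 1.54% as lower. The change upon differentiation itself differed between the lines for 3 members, more positive in V71 for DCX and NAV2 and less so for DCLK1; over all genes 1.39% were called, 1.09% in the direction of DCX and NAV2 and 0.305% in that of DCLK1. In bulk RNA, fewer cells that express a gene and less of its RNA per cell cannot be told apart. With 2 arrays per group, a fit without the moderation of variances left 1 member called in DF (DCX), 1 in NDF (NAV2) and 0 in the test of the difference between the lines' changes, where 4 of 9 had an unadjusted p under 0.05.

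**Figure D2:**
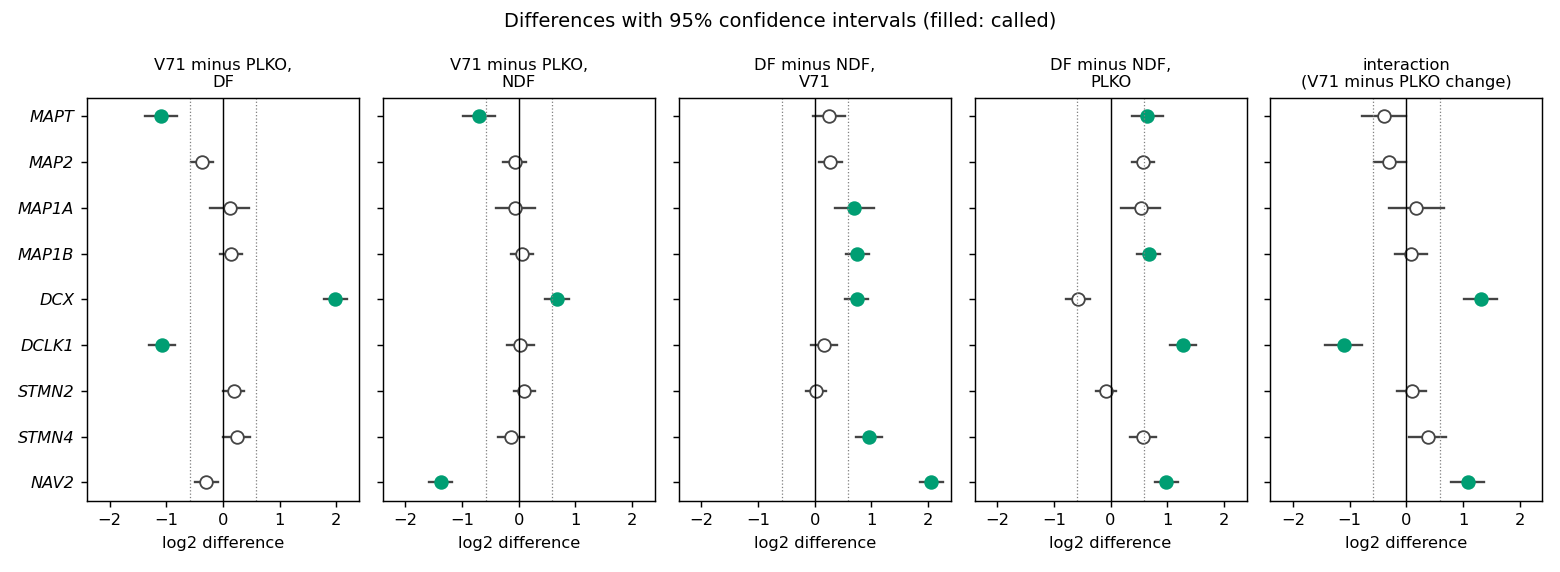
Log2 difference of each member in the comparisons V71 minus PLKO in DF and in NDF and DF minus NDF in V71 and in PLKO, with 95% confidence intervals from the limma fit; filled points are called members and dotted lines mark a fold of 1.5. The DCX difference between the lines is 1.98 in DF and 0.67 in NDF, and the NAV2 differences upon differentiation are 2.06 in V71 and 0.98 in PLKO.

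DCX, doublecortin, is the X-linked gene whose loss causes lissencephaly, and it marks migrating and newly born neurons. Its values were 9.81 and 9.98 in V71 DF and 9.10 and 9.22 in V71 NDF. The PLKO arrays read 7.92 and 7.90 in DF and 8.52 and 8.45 in NDF. Both V71 groups lay above both PLKO groups with no overlap, and the order of the group means was V71 DF, V71 NDF, PLKO NDF, PLKO DF. DCX was 3.96-fold higher in V71 in DF (log2 difference 1.98, SE 0.092, adjusted p = 5.56e-06) and 1.60-fold higher in NDF (0.67, SE 0.092, adjusted p = 0.00387). Upon differentiation it rose 1.66-fold in V71 (0.74, SE 0.092, adjusted p = 0.000609). In PLKO the difference was -0.58 (adjusted p = 0.0027), a fold of 1.49 that stayed just inside the fold limit. The lines' changes differed by 1.31 (95% confidence interval 1.02 to 1.60, adjusted p = 0.00137). The call in NDF did not hold without PLKO NDF replicate 3 (0.64, adjusted p = 0.0586), and in PLKO DCX passed as lower in DF without PLKO DF replicate 1 (-0.59) or without PLKO NDF replicate 3 (-0.61). DCX also stands on a list that the study drew from these arrays.

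DCLK1 encodes a kinase with doublecortin domains that bind microtubules, and its pattern ran otherwise. The arrays read 6.99 and 7.01 in V71 DF and 6.73 and 6.95 in V71 NDF, against 8.01 and 8.16 in PLKO DF and 6.86 and 6.75 in PLKO NDF. Only the PLKO DF pair stood apart, and the NDF arrays of the lines overlapped. DCLK1 was 2.12-fold lower in V71 in DF (-1.08, SE 0.102, adjusted p = 0.000347), while in NDF the difference was 0.03 with an interval of -0.20 to 0.26. In PLKO it rose 2.42-fold upon differentiation (1.28, SE 0.102, adjusted p = 3.1e-05). In V71 the difference was 0.16, with an interval of -0.06 to 0.39. The lines' changes differed by -1.11 (interval -1.44 to -0.79, adjusted p = 0.00631).

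NAV2, neuron navigator 2, was first described as a gene induced by retinoic acid in neuroblastoma cells and takes part in neurite outgrowth. It read 8.51 and 8.43 in V71 DF and 6.44 and 6.38 in V71 NDF, against 8.76 and 8.77 in PLKO DF and 7.88 and 7.69 in PLKO NDF. No 2 groups overlapped, and the V71 NDF pair was the lowest by more than 1 log2 unit. Upon differentiation NAV2 rose 4.17-fold in V71 (2.06, SE 0.092, adjusted p = 1.2e-06) and 1.98-fold in PLKO (0.98, SE 0.092, adjusted p = 8.23e-05). It was 2.59-fold lower in V71 in NDF (-1.37, SE 0.092, adjusted p = 4.23e-05). In DF the difference was -0.30 with an interval of -0.50 to -0.09, which did not pass (adjusted p = 0.118). The lines' changes differed by 1.08 (interval 0.79 to 1.37, adjusted p = 0.00416). NAV2, too, is on a list that the study chose from these arrays.

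The windows of 250 bases just before the most upstream annotated start are shown for DCX, DCLK1 and NAV2, the 3 members called for the interaction. They were taken from RefSeq on GRCh38.p14 and run 5' to 3' on the gene's strand. Capitals mark AGGTCA, a core hexamer bound by nuclear receptors, searched on both strands (its reverse complement is TGACCT). DCX lies at chrX:111412193-111412442 on the minus strand, DCLK1 at chr13:36131940-36132189 on the minus strand, and NAV2 at chr11:19344986-19345235 on the plus strand.
DCX: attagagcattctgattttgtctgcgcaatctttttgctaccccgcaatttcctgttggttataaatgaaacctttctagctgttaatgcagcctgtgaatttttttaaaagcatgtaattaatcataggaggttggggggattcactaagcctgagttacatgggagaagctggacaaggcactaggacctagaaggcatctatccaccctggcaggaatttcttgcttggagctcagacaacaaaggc
DCLK1: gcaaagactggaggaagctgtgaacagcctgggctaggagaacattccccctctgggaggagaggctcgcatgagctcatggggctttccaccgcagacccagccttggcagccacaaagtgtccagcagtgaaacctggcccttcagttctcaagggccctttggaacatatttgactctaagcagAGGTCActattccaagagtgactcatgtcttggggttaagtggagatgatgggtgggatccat
NAV2: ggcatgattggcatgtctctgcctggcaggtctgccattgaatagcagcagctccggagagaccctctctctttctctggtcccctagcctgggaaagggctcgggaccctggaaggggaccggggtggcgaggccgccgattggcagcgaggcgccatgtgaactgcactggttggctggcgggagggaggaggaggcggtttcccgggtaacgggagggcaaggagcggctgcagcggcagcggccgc

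Among these windows the hexamer was found once, in that of DCLK1. Over the 16 windows of the 6 members searched it was in 1, and over all 35116 windows of that length it was in 12.08%. A match of these letters is a description of the window, and the data hold no measurement of binding. The windows are those of the reference genome and not of either line, and their part in the difference between the lines was not tested. MAPT had no entry, and the stathmin genes were not searched.

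Among the structural proteins, MAPT was lower in V71 in both conditions. Tau values were 5.72 and 5.79 in V71 DF and 5.31 and 5.69 in V71 NDF, against 6.92 and 6.77 in PLKO DF and 6.23 and 6.17 in PLKO NDF. All 4 V71 arrays lay below all 4 PLKO arrays. MAPT was 2.13-fold lower in V71 in DF (-1.09, SE 0.124, adjusted p = 0.00107) and 1.62-fold lower in NDF (-0.70, SE 0.124, adjusted p = 0.0173). Upon differentiation it rose 1.56-fold in PLKO (0.64, SE 0.124, adjusted p = 0.00763), and in V71 the difference was 0.25 (interval -0.03 to 0.53). The changes of the lines were not shown to differ (-0.39, adjusted p = 0.542). The NDF call did not hold without V71 NDF replicate 2 (adjusted p = 0.0864), PLKO NDF replicate 2 (0.146) or PLKO NDF replicate 3 (0.113), nor in a fit on only the 4 NDF arrays (0.0581), and the call in PLKO did not hold without PLKO DF replicate 1 (0.0553) or PLKO NDF replicate 3 (0.0682).

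MAP2, the marker of dendrites, moved by less. It read 8.32 and 8.40 in V71 DF and 8.08 and 8.10 in V71 NDF, against 8.64 and 8.82 in PLKO DF and 8.16 and 8.16 in PLKO NDF. The DF arrays were above the NDF arrays in both lines, and the PLKO DF pair was the highest. None of its differences passed both limits. The difference upon differentiation was 0.27 in V71 (adjusted p = 0.081) and 0.57 in PLKO (fold 1.49, adjusted p = 0.00248). In PLKO it passed without PLKO DF replicate 1 (0.66) or with quantile normalisation applied again (0.595). Between the lines the difference was -0.37 in DF (fold 1.29, adjusted p = 0.0489) and -0.07 in NDF.

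MAP1A and MAP1B encode large proteins that are cut into heavy and light chains, MAP1B being the form of early neurite growth and MAP1A that of mature neurons. MAP1B values were 10.27 and 10.28 in V71 DF and 9.45 and 9.58 in V71 NDF, against 10.10 and 10.16 in PLKO DF and 9.52 and 9.40 in PLKO NDF. Each DF pair lay above its NDF pair, and MAP1B rose 1.69-fold in V71 (0.75, SE 0.088, adjusted p = 0.000408) and 1.59-fold in PLKO (0.67, SE 0.088, adjusted p = 0.000798). The changes differed by 0.08 between the lines, with an interval of -0.20 to 0.36. Between the lines the MAP1B difference was 0.14 in DF (interval -0.06 to 0.34) and 0.06 in NDF (interval -0.14 to 0.25).

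MAP1A read 6.16 and 5.95 in V71 DF and 5.15 and 5.55 in V71 NDF, against 5.88 and 5.99 in PLKO DF and 5.57 and 5.25 in PLKO NDF. It had the widest spread within groups of the 9 members, and the lines overlapped in both conditions. MAP1A rose 1.62-fold upon differentiation in V71 (0.70, SE 0.152, adjusted p = 0.0142). That call did not hold without V71 DF replicate 1 (adjusted p = 0.0999) or V71 NDF replicate 2 (0.10). In PLKO the difference was 0.53 (adjusted p = 0.0523), and the lines' changes were not shown to differ (0.17, interval -0.31 to 0.66).

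The stathmins split into a member that moved with differentiation and one that did not pass any test. STMN4 read 7.58 and 7.42 in V71 DF and 6.53 and 6.56 in V71 NDF, against 7.14 and 7.37 in PLKO DF and 6.71 and 6.64 in PLKO NDF. Both DF pairs lay above both NDF pairs. It rose 1.95-fold in V71 (0.96, SE 0.103, adjusted p = 0.000236). In PLKO the difference was 0.58 (fold 1.498, adjusted p = 0.00471), just under the fold limit. It passed without PLKO DF replicate 1 (0.70) or PLKO NDF replicate 2 (0.62), and with the arrays centred on their medians (0.5852). The lines' changes were not shown to differ (0.38, interval 0.05 to 0.70, adjusted p = 0.439).

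STMN2, also called SCG10, sits in growth cones and is used as a marker of neurons. It read 11.48 and 11.44 in V71 DF and 11.47 and 11.41 in V71 NDF, against 11.23 and 11.30 in PLKO DF and 11.33 and 11.35 in PLKO NDF. The V71 arrays were all above the PLKO arrays, by little. The difference between the lines was 0.19 in DF (interval 0.01 to 0.37, adjusted p = 0.258) and 0.10 in NDF (interval -0.08 to 0.28). Upon differentiation it was 0.02 in V71 (interval -0.16 to 0.20) and -0.08 in PLKO (interval -0.26 to 0.10).

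Of the members called between the lines, DCLK1 was called in DF and not in NDF and NAV2 in NDF and not in DF, with the difference between conditions itself called for both, and DCX and MAPT were called in both conditions, each in the same direction. The order of the group means was PLKO DF, PLKO NDF, V71 DF, V71 NDF for MAPT. For NAV2 it was PLKO DF, V71 DF, PLKO NDF, V71 NDF, and the difference between its neighbours PLKO DF and V71 DF was not called. MAP1A, MAP1B and STMN4 were ordered first by condition, with V71 DF highest, though none of them was called between the lines in DF. MAP2 had the order of NAV2, with PLKO DF highest.

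Markers of other cell states moved with the groups. The mean level of 6 markers of dividing cells was 7.10 to 7.14 in V71 DF and 8.39 to 8.47 in V71 NDF, against 6.36 to 6.59 in PLKO DF and 8.21 to 8.25 in PLKO NDF. All 6 fell upon differentiation in each line, and in DF 3 of 6 were higher in V71, among them MKI67 (0.84). Over all genes 3.55% fell in V71, 4.16% fell in PLKO and 1.81% were higher in V71 in DF. The mean level of 14 markers of S-type cells, the substrate-adherent form that neuroblastoma lines can hold beside neuroblasts, was 4.14 to 4.31 in V71 DF and 4.30 to 4.43 in V71 NDF, against 4.75 to 4.80 in PLKO DF and 5.29 to 5.31 in PLKO NDF. In V71, 4 of the 14 were lower in DF and 7 of the 14 in NDF, and none was higher. Over all genes 1.26% were lower in DF and 1.54% in NDF. DCN was below the lower quartile in both V71 groups, VIM in V71 DF and PRRX1 in PLKO NDF. Of 8 Schwann cell and glia markers 5 were analysed, none of them called by limma in any comparison (at most 1 at an unadjusted p under 0.05), with mean levels of 3.80 to 4.03 on all arrays. Of the 8 sympathetic neuroblast markers, DBH was lower in V71 in DF (-0.74) and CHGA was higher in V71 in NDF (0.99). In V71, DBH (-1.20) and GATA3 (-0.64) fell upon differentiation, and in PLKO none was called. The change of CHGA was more negative in V71 (-0.87). Over all genes 0.615% were higher in V71 in NDF and 0.305% had a more negative change in V71. The part of these markers in the differences of the members was not tested.

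**Figure D3:**
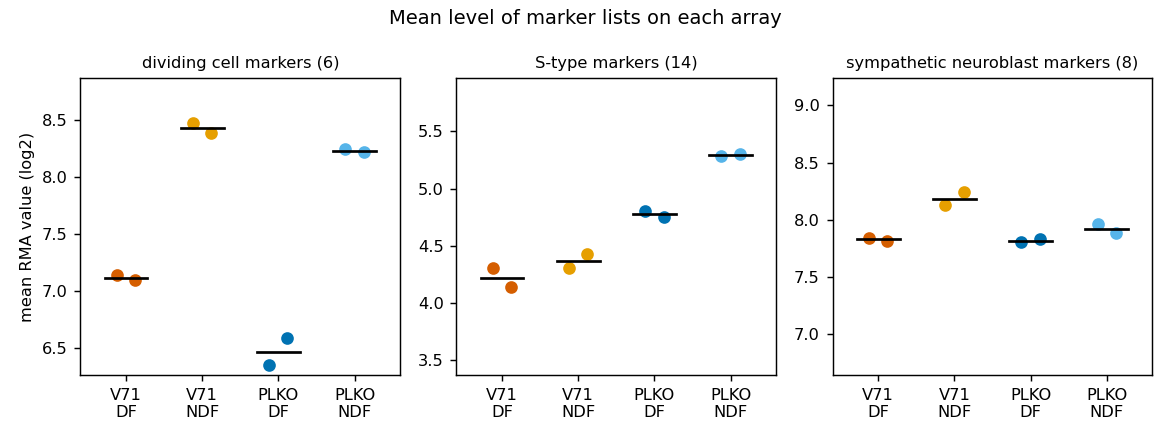
Mean RMA value (log2) on each array of 6 markers of dividing cells, 14 S-type markers and 8 sympathetic neuroblast markers; points are arrays and bars are group means, and each panel has its own axis range. The dividing cell markers lie at 7.10 to 7.14 in V71 DF and 6.36 to 6.59 in PLKO DF, and the S-type markers are lowest in the V71 groups and highest in PLKO NDF.

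The other genes of the microtubule system were described from 4 lists. Over all genes, 7.53% were called upon differentiation in V71 and 7.04% in PLKO. Between the lines 3.06% of all genes were called in DF and 2.15% in NDF. Of 21 analysed tubulins, the subunits of the polymer, none differed between the lines by limma (at an unadjusted p under 0.05, 4 in DF and 1 in NDF). Upon differentiation 2 tubulins fell in each line, TUBB4B by 0.96 in V71 (adjusted p = 0.00566) and by 0.92 in PLKO (adjusted p = 0.00727), and none rose. The other call in V71 was TUBD1 (-0.62, with -0.41 and no call in PLKO), and in PLKO it was TUBG1 (-0.62, with -0.58 in V71, which missed the call by its fold).

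Among 24 other microtubule-associated, stathmin, doublecortin and navigator genes, 4 rose and 1 fell upon differentiation in V71, and 3 rose and none fell in PLKO. The calls made up 20.8% of the list in V71 and 12.5% in PLKO, beside 7.53% and 7.04% of all genes. DCLK2, the closest relative of DCLK1 on the lists, rose by 1.18 in V71 and 0.84 in PLKO, and JAKMIP1, which links receptors to microtubules, rose by 1.03 in V71 and 0.59 in PLKO. MAP6, which protects microtubules from cold, rose by 0.63 in V71 and 0.99 in PLKO. STMN1, another stathmin, was lower in V71 in DF (-0.89, adjusted p = 0.00121) and in NDF (-0.76, adjusted p = 0.00383). In DF 2 of these genes were lower in V71 and none higher, and in NDF 2 were lower and 1, MTUS1 (0.74), was higher. That is 8.33% of the list in DF and 12.5% in NDF, beside 3.06% and 2.15% of all genes.

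Of 21 genes for end-binding and lissencephaly proteins none differed between the lines by limma (at an unadjusted p under 0.05, 8 in DF and 3 in NDF). In V71 2 rose upon differentiation, the end-binding proteins CLIP2 (0.80) and MAPRE3 (0.80). In PLKO the same 2 rose, CLIP2 by 0.71 and MAPRE3 by 0.80, and NDE1, a partner of dynein at the centrosome, fell (-0.84, with -0.55 and no call in V71). These calls made up 9.52% of the list in V71 and 14.3% in PLKO, beside 7.53% and 7.04% of all genes.

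Of 32 kinases, phosphatase subunits and tubulin enzymes, 2 rose and 1 fell upon differentiation in each line. That is 9.4% of the list, near the 7.53% of all genes called in V71 and the 7.04% called in PLKO. AGTPBP1, which trims glutamates from tubulin tails, rose by 2.14 in V71 and 1.59 in PLKO. FIGN, a severing enzyme, fell (-0.61 in V71 and -1.08 in PLKO), and PPP2R2C, a subunit of phosphatase 2A, rose by 0.80 in V71 and 0.64 in PLKO. Between the lines 1 of the 32 was lower in V71 in DF (PPP2R2B, -0.65) and 1 in NDF (PPP2R2C, -0.63). This 3.1% in each condition is near the 3.06% of all genes called in DF and the 2.15% called in NDF. No gene of these 4 lists was called for a difference between the lines' changes in the limma fit (9 of 98 at an unadjusted p under 0.05). Of the 9 members 3 were called and 5 had an unadjusted p under 0.05. Over all genes 1.39% were called. Of 25 genes for mitotic spindle proteins, described further below, 7 were called and 16 had an unadjusted p under 0.05. Calls for this difference were thus not confined to the members, which were chosen with earlier results of these data known.

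**Figure D4:**
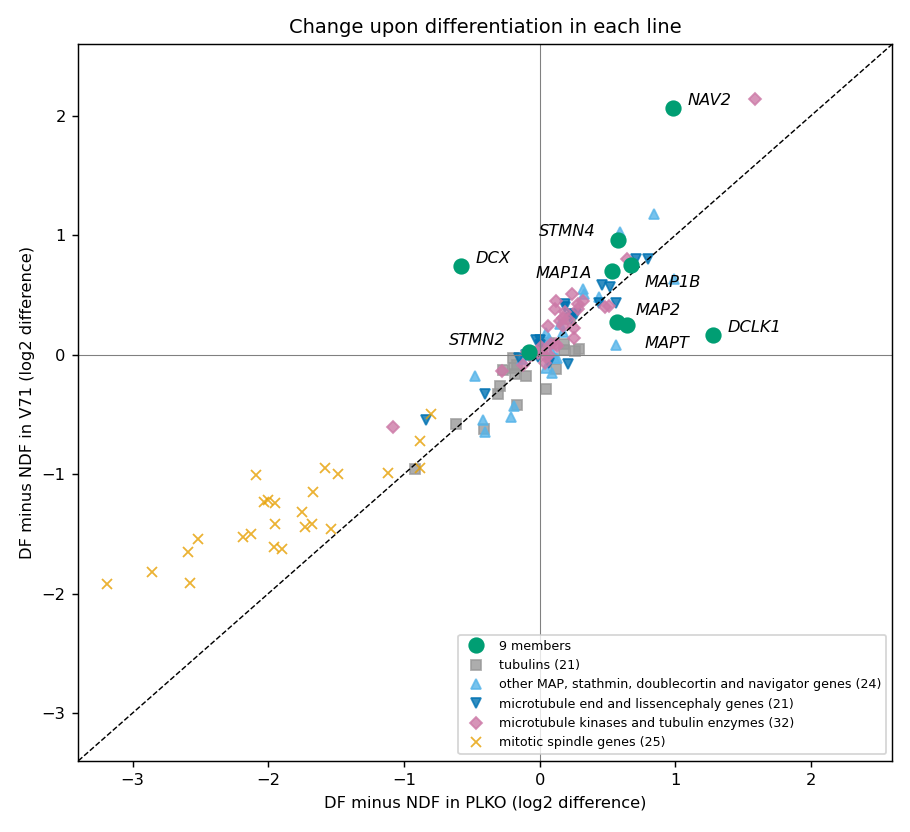
DF minus NDF in V71 (vertical axis, log2) against DF minus NDF in PLKO (horizontal axis, log2) for the 9 members and the genes of 5 microtubule lists; each point is a gene and the dashed line marks equal change. DCX (0.74 in V71 and -0.58 in PLKO) and NAV2 (2.06 and 0.98) lie above the line and DCLK1 (0.16 and 1.28) below it.

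The genes whose 8 values ran most like those of a member were sought for the 4 members whose group means spanned at least 1 log2 unit, among 1416 genes whose 8 values did so. Each r is over 8 arrays that share 4 groups, so it mostly follows the group means and is given as a description. For DCX they were TLE4 (r = 0.974), ITGB8 (0.972) and MYCN (0.967), and for DCLK1 TM4SF1 (0.996), CNKSR2 (0.989) and TRIM54 (0.986). For NAV2 they were KIF5C (0.996), a kinesin that walks on microtubules, SPRY1 (0.994) and CADM1 (0.994), and for MAPT SLC4A11 (0.982), TRHR (0.981) and MARCHF4 (0.974).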

How the data were processed

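RNA of 8 SHSY5Y samples was hybridised to Affymetrix Human Gene 1.0 ST arrays. The authors normalised and summarised the arrays by RMA in Partek 6.5, and the deposited log2 values were used unchanged. Background subtraction and quantile normalisation in RMA compress low values and assume a like distribution on every array. The annotation build is not given in the sources used here. Of 28869 rows, 19310 carried 1 symbol; where a gene had several rows, the row with the highest mean was taken.

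A 4-group model was fitted in limma 3.58.1 (R 4.3.3) with moderated variances (4 residual and 5.43 prior degrees of freedom), without a block. P values are 2-sided and were Benjamini-Hochberg adjusted over the 28869 rows. The script was tested on simulated data. The methods call the replicates biological duplicates without saying how the cultures were separated, so p values measure the spread between these arrays, and 2 arrays per group limit the precision. The members and lists were chosen with earlier results of these data known. All members were named; from each other list, up to 4 called genes with the largest difference per comparison were named, and for each member spanning at least 1 log2 unit, the 3 genes with the highest r. Tested alternatives were other normalisations, filters, fold limits, fits and each array left out.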

Additional observations from a re-analysis of the deposited data

Results flagged for a closer look

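The change upon differentiation differed between the lines, by the interaction term of the limma fit, for 3 members. The difference of the changes, V71 minus PLKO, was 1.31 for DCX (SE 0.130, adjusted p = 0.00137), -1.11 for DCLK1 (SE 0.145, adjusted p = 0.00631) and 1.08 for NAV2 (SE 0.130, adjusted p = 0.00416). DCX moved up in both V71 arrays and down in both PLKO arrays relative to NDF, and NAV2 moved up in all 4 DF arrays, more so in V71. DCLK1 was higher in both PLKO DF arrays than in any other array. Groups of 2 arrays are too small for a test of single outlying arrays.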

How the results depend on the processing

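Of 720 values of single members under the alternatives, 676 kept their direction and their side of the threshold, 27 lost the call, 7 gained one and 10 uncalled values changed sign. Many alternatives change only the variance, the rows tested, the threshold or arrays of other groups, and leave the estimate as it was. For these the direction was kept by construction, so the 676 of 720 is not a rate of stability. Without moderation of variances the count of called members was 1 in DF, 1 in NDF and 0 for the interaction, and among all genes the counts were 166 in DF, 99 in NDF and 3 for the interaction. At a fold of at least 2, it was 1 in NDF, 1 upon differentiation in V71 and 1 in PLKO, and among all genes 152 in DF, 133 in NDF, 486 in V71, 525 in PLKO and 133 for the interaction. Leaving out 1 array gave 1 to 3 called members in NDF (1 without PLKO NDF replicate 3), and 120 to 230 of all genes for the interaction (256 with every array, 187 without V71 DF replicate 2, 230 without PLKO DF replicate 2 and at most 163 without any other array). Leave-one-out ranges that cross zero were -0.259 to 0.146 (MAP1A, V71 minus PLKO in NDF), -0.00870 to 0.122 (MAP1B, V71 minus PLKO in NDF), -0.0810 to 0.140 (DCLK1, V71 minus PLKO in NDF), -0.00810 to 0.0465 (STMN2, DF minus NDF in V71), -0.0291 to 0.375 (MAP1A, interaction). With quantile normalisation applied again, STMN2 was 0.0886 upon differentiation in PLKO and -0.0312 for the interaction. Whether the replicate numbers pair the arrays was not settled. The correlation of deviations between the lines was 0.188 in DF and -0.176 in NDF, and it has no reference value to be judged by. With the replicate block 3, 3 and 3 members were called in DF, in NDF and for the interaction, and 564, 388 and 190 of all genes. With the numbers crossed in NDF, an alternative chosen after seeing the data, these were 3, 3 and 3 members and 570, 394 and 214 genes. Averaging several rows gave no value because no member has more than 1, and the fit on only 4 arrays was not run for the interaction.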

Other observations

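Genes for mitotic spindle proteins, which act on microtubules in dividing cells, moved in the opposite direction to the called members upon differentiation. Of 25 analysed, 24 fell upon differentiation in V71 and 25 in PLKO, with a median difference of -1.42 in V71 and -1.95 in PLKO. HMMR, a spindle assembly protein, fell by 1.92 in V71 and 3.19 in PLKO, and the mitotic kinesin KIF20A fell by 1.91 in V71 and 2.58 in PLKO. In DF 16 of the 25 were higher in V71 and none lower, with DLGAP5 (1.18, adjusted p = 0.000515) and HMMR (1.12, adjusted p = 0.00143) the furthest apart, and in NDF none was called by limma (6 at an unadjusted p under 0.05). The change upon differentiation differed between the lines for 7 of the 25, each less negative in V71, for HMMR by 1.27 (adjusted p = 0.0137). Over all genes 3.55% fell in V71 and 4.16% in PLKO, 1.81% were higher in V71 in DF, and 1.09% had a more positive change in V71. The members of the neuronal set and the spindle genes were measured on the same arrays. The dividing cell markers, whose mean level was 7.10 to 7.14 in V71 DF and 6.36 to 6.59 in PLKO DF, fell upon differentiation as the spindle genes did.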
